A study of Drosophila melanogaster with 10 samples.

Results

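The genes of the proteasome were followed in RNA from sorted neuroblasts, the neural stem cells of the Drosophila melanogaster brain, in larvae, in wild-type pupae and in pupae with med27 knocked down. Members were all genes whose symbol in the deposited tables begins with Prosalpha, Prosbeta, or Pros, Rpn or Rpt followed by a digit, or is Mov34, Tbp-1 or Dox-A2. Of 14210 listed genes, 43 met this rule. They comprise 30 genes of standard subunits and 13 paralogues, which are further copies of single subunit genes. All 30 standard genes and 1 paralogue, Rpt3R, reached a mean of 1 FPKM over the libraries (fragments scaled by transcript length and by sequencing depth) and were tested among 6992 genes.

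The proteasome is the main protease for proteins tagged with ubiquitin. Its core particle is a barrel of alpha rings, which gate the entry, and beta rings, which hold the proteolytic sites. A regulatory particle caps the barrel. The base of this cap contains a ring of ATPases that unfolds substrates, and its lid cuts off the ubiquitin chains. Dividing cells such as neuroblasts use the proteasome to destroy cyclins in each cell cycle.

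Animals of all 3 groups carried inscuteable-Gal4, a driver active in neuroblasts, and UAS-CD8::GFP, a membrane-bound marker. Wild type here means the empty landing site VIE-260B (VDRC 60100) in place of a construct, and knockdown means RNA interference (RNAi) against med27 (VDRC 106703), which encodes a subunit of the Mediator, the complex that links transcription factors to RNA polymerase II. Eggs were collected over 24 h, and brains were dissected after 5 days at 29 °C from late larvae of the third instar or after 6 days from pupae aged 0 to 2 h. Large central brain cells with high GFP were sorted, and polyA RNA was sequenced with strand-specific libraries. With 2 biological replicates a group, n = 2 throughout, since values of the 2 technical runs of a pupal replicate were averaged first. Because inscuteable-Gal4 is active before pupa formation, the knockdown could begin in the larva, and larval knockdown cells were not analysed here.

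Confidence bounds of the values imply a depth of 18200537 and 18070378 fragments in larvae, and 27127121 to 31192332 in a pupal run. The standard subunit genes apart from Prosalpha1 rested on 3729 to 28576 fragments per run, so that counting error of even the lowest was 1.28 to 1.64%. MED27 checks the labels and stood at 31.7 and 38.3 FPKM in larvae, 31.5 and 27.4 in wild-type pupae, and 5.33 and 3.99 in RNAi pupae, a log2 change of -2.43 from wild-type to RNAi pupae (limma adjusted p = 0.000522). All 7 neuroblast markers examined were expressed, with summed FPKM of 1408 to 1804 per library. Neuron markers summed to 26.6 and 22.1 FPKM in larvae, 77.8 and 155 in wild-type pupae, and 77.0 and 78.4 in RNAi pupae. Of 7 glia markers, 5 stayed under 1 FPKM in every library, as did all 5 haemocyte and all 5 fat body markers. The other glia markers were nrv2, at 97.5 to 131 FPKM, and Eaat1, at 75.7 and 61.4 FPKM in larvae, 61.1 and 71.5 in wild-type pupae, and 18.6 and 18.7 in RNAi pupae (log2 change -1.77 from wild-type to RNAi pupae, limma adjusted p = 0.000522). From larva to wild-type pupa, all 5 neuron markers that could be tested rose (median log2 change 1.46), as did all 5 intermediate progenitor markers (0.72) and 3 of 7 neuroblast markers. From wild-type to RNAi pupae, 2 of 7 neuroblast markers fell, ase (-0.82) and CycE (-0.54), as did 1 of 5 intermediate progenitor markers, pnt (-0.68). In both lists 0 were called higher, where 8.64% of all tested genes were lower and 19.6% higher. The neuroblast markers dpn (0.12) and wor (0.22) and the intermediate progenitor marker erm (0.36) had positive values that did not pass. The part of these markers in the proteasome results was not tested.

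The standard subunit genes were among the more abundant mRNAs of these cells, and levels split by particle. In each library the members' FPKM made up between 1.036% and 1.295% of the summed FPKM. Among the genes under the symbols of the rule, each of 12 core genes exceeded each of 17 genes of the regulatory particle in all 6 libraries. Core genes lay between 248 and 557 FPKM and regulatory particle genes between 122 and 309. The highest core gene on average was Prosbeta7, a structural subunit of the beta ring, at 527 and 557 FPKM in larvae, 364 and 388 in wild-type pupae, and 534 and 548 in RNAi pupae. The wild-type pupal libraries were thus the low ones, and the other groups overlapped. At the lower end of the regulatory particle stood the ATPase gene Tbp-1 (current symbol Rpt5), at 139.9 and 146 FPKM in larvae, 139.0 and 122 in wild-type pupae, and 157.5 and 156.5 in RNAi pupae. Its RNAi pupal libraries were the highest, and the larval and wild-type pupal ones did not overlap.

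**Figure D1:**
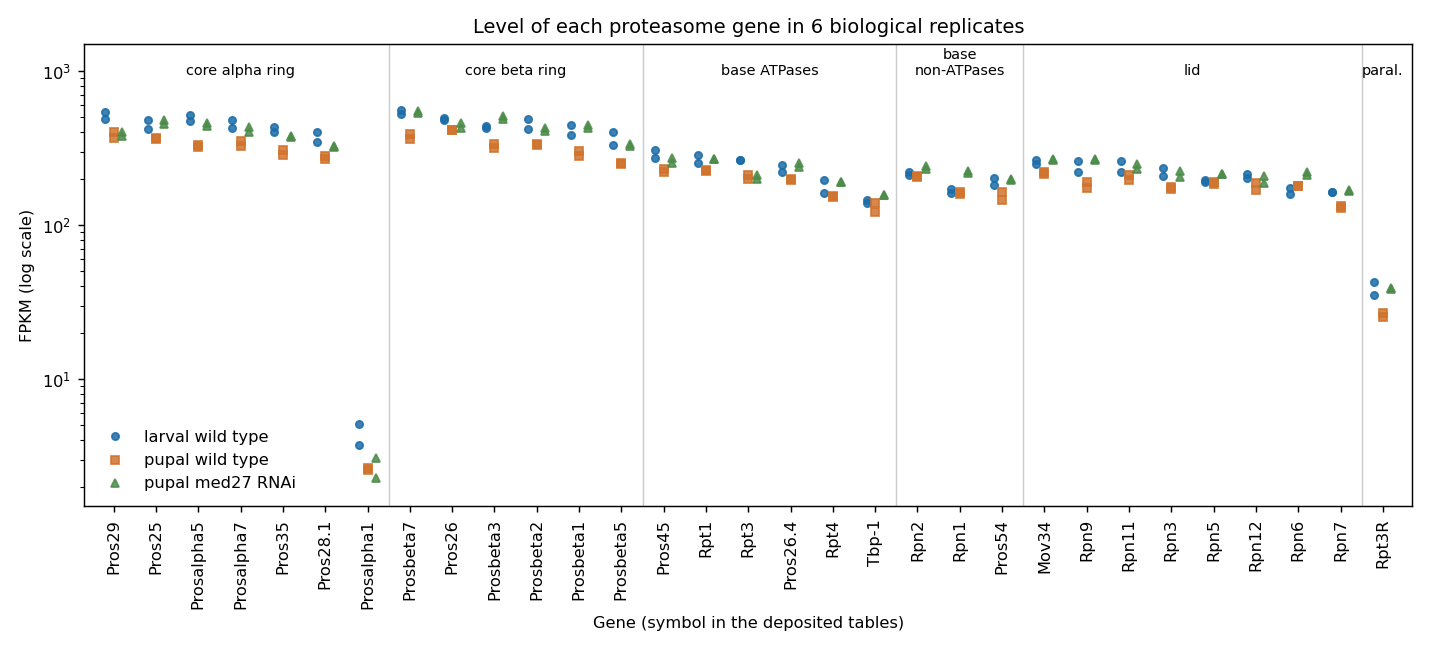
FPKM (log axis) of the 31 tested proteasome genes, ordered by role and by mean level, with 1 point for each of the 2 biological replicates of a group. The core genes sit above the regulatory particle genes, apart from Prosalpha1 at 2.30 to 5.10 FPKM, and the paralogue Rpt3R lies below both particles.

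Prosalpha1 was the exception among the core genes. It stood at 5.10 and 3.72 FPKM in larvae, 2.66 and 2.56 in wild-type pupae, and 3.07 and 2.295 in RNAi pupae, on 60 to 100 fragments per run. A near-identical copy, listed as CG30382 (Prosalpha1R), has its own entry at 0.124 to 0.729 FPKM, so the value of Prosalpha1 is uncertain and it was left out of the core medians over 12 genes. The gene phr overlaps it by 17 bases.

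As deposited, transcripts of the core particle fell from larva to pupa. Those of the regulatory particle fell in part. Counts in both particles depended on the scaling. This comparison asks how neuroblasts change as metamorphosis begins under the steroid hormone ecdysone. Of the 31 tested members, 23 were lower in wild-type pupae and 0 higher (limma, Benjamini-Hochberg adjusted p under 0.05), where 26.5% of all tested genes were lower, 22.7% higher and 49.2% called in either direction. The members' median log2 fold change of FPKM + 1 was -0.34, and that of all tested genes was -0.07. The pupal libraries lay below both larval ones for 29 members, a pattern found in 43.3% of all tested genes, and above them for 1, as in 33.8%. In bulk RNA, fewer cells of a type and less RNA per cell cannot be told apart.

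All 7 genes of the alpha ring fell, with a median of -0.44. The alpha ring gene Prosalpha5 (FBgn0016697, chromosome arm 2R) stood at 473 and 519 FPKM in larvae against 330.5 and 324 in wild-type pupae, with no overlap. Its log2 fold change of -0.60 (SE 0.08, n = 2 per group, limma adjusted p = 0.00199) was the largest fall of any member. Pros35 (Prosalpha6, FBgn0250843, 2L) stood at 404 and 431 FPKM in larvae against 309 and 285 in wild-type pupae, also without overlap, and fell by 0.49 (SE 0.08, limma adjusted p = 0.00327). Pros29 (Prosalpha3, 2R) had the highest mean of the ring, at 488 and 540.4 FPKM in larvae against 403 and 367 in wild-type pupae, and fell by 0.42 (limma adjusted p = 0.0085). Prosalpha1 passed too, at -0.57 (SE 0.19, limma adjusted p = 0.0421), but it lost its call in 5 of 6 fits that left out a replicate, all except that without larval replicate 2. The remaining ring genes, Pros28.1, Prosalpha7 and Pros25, came to -0.44, -0.42 and -0.30 (limma adjusted p = 0.00755, 0.0093 and 0.0294). Without wild-type pupal replicate 2, Pros29 (limma adjusted p = 0.0572) and Prosalpha7 (limma adjusted p = 0.0602) missed the threshold, and Pros25 missed it without larval replicate 2 or either wild-type pupal replicate.

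All 6 genes of the beta ring under the symbols of the rule fell as well, with a median of -0.46. The catalytic genes are 3 of them. Prosbeta5, the chymotrypsin-like subunit (FBgn0029134, 2R), stood at 333 and 402 FPKM in larvae against 253 and 248 in wild-type pupae and changed by -0.54 (SE 0.10, limma adjusted p = 0.00482). Prosbeta1, the caspase-like subunit (FBgn0010590, 2R), stood at 383 and 444 FPKM against 304 and 282 and changed by -0.49 (SE 0.09, limma adjusted p = 0.00592). Prosbeta2, the trypsin-like subunit (FBgn0023174, 3L), stood at 418 and 485 FPKM against 336 and 329 and changed by -0.44 (SE 0.09, limma adjusted p = 0.00775). In none of these genes did the larval and pupal libraries overlap, and all 3 calls held in each fit that left out a replicate. With the length trend removed, Prosbeta1 (-0.11, limma adjusted p = 0.236) and Prosbeta2 (-0.13, limma adjusted p = 0.192) lost their calls, and Prosbeta2 also did after quantile normalization (limma adjusted p = 0.111). Prosbeta7 (FBgn0250746, 3R) fell by 0.53 (SE 0.08, limma adjusted p = 0.00256). The smallest fall of the ring was that of Pros26 (Prosbeta6, 3L), at 483 and 499 FPKM in larvae against 416 and 417 in wild-type pupae, a log2 change of -0.24 (limma adjusted p = 0.04) that passed in none of the 6 fits that left out a replicate.

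In the regulatory particle, 9 of 17 genes fell and 0 rose as deposited, with a median of -0.24. After quantile normalization 0 of these genes were lower and 2 higher (median -0.03), beside 1713 and 1521 of 6992 tested genes. Scaling to a common sum of FPKM, chosen after seeing the data, gave 0 lower and 1 higher (-0.04), beside 884 and 2270 of 7253. With the length trend removed 4 were lower and 0 higher (-0.13), beside 1212 and 872 of 6659. As deposited, 4 of the 6 ATPases of the base fell. Rpt3 (FBgn0028686, X) stood at 266 and 265 FPKM in larvae against 212 and 200.4 in wild-type pupae and fell by 0.36 (SE 0.07, limma adjusted p = 0.00713). Pros45 (Rpt6, X), the highest ATPase gene, measured 272 and 309 FPKM against 231.5 and 221 and fell by 0.36 (limma adjusted p = 0.0146), a call lost without larval replicate 2 or wild-type pupal replicate 2. Of the lid genes 4 of 8 fell, led by Rpn9 at -0.40 (limma adjusted p = 0.0151), also lost without either of those libraries, while Rpn7, the lowest lid gene among the members, measured 164 and 163 FPKM in larvae against 133 and 129 in wild-type pupae and fell by 0.31 (SE 0.07, limma adjusted p = 0.00882), short of the threshold without wild-type pupal replicate 2.

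Several regulatory particle genes did not pass. Rpn11, whose product is the deubiquitinase of the lid, stood at 222 and 260.2 FPKM in larvae against 210.2 and 197 in wild-type pupae, a log2 change of -0.24 (SE 0.10, limma adjusted p = 0.0759). Both large scaffold genes of the base were nearly level, with Rpn1 at -0.05 (SE 0.07, limma adjusted p = 0.596) and Rpn2 at -0.07 (SE 0.07, limma adjusted p = 0.454). Rpn2, the highest member of the base without ATPase activity, read 210.3 and 222 FPKM in larvae, 208 and 204 in wild-type pupae, and 242 and 230.1 in RNAi pupae. Its wild-type pupal libraries lay just below the larval ones, and its RNAi libraries above all others. In the lid, Rpn5 was at -0.05 (limma adjusted p = 0.582) and Rpn6, whose product contacts both base and core, at 0.10 (SE 0.08, limma adjusted p = 0.301). Rpn6 read 174.5 and 160.3 FPKM in larvae against 178.5 and 180.3 in wild-type pupae, the only member whose pupal libraries both lay above the larval ones.

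These counts depended on single libraries and on the scaling. Members lower numbered 11 without wild-type pupal replicate 2 and 14 without larval replicate 2, where 933 and 1070 of 6992 genes were lower. After quantile normalization 8 members were lower and 2 higher (Rpn5 and Rpn6), beside 1713 and 1521 of 6992 genes, so that the share of members lower was near that of all genes. The core genes lower numbered 13 of 13 as deposited and 7 after quantile normalization. With the length trend removed they numbered 4, beside 1212 of 6659 genes. The calls of 5 members, Prosalpha5, Pros35, Prosbeta5, Prosbeta7 and Rpt3R, held in all 18 alternatives.

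**Figure D2:**
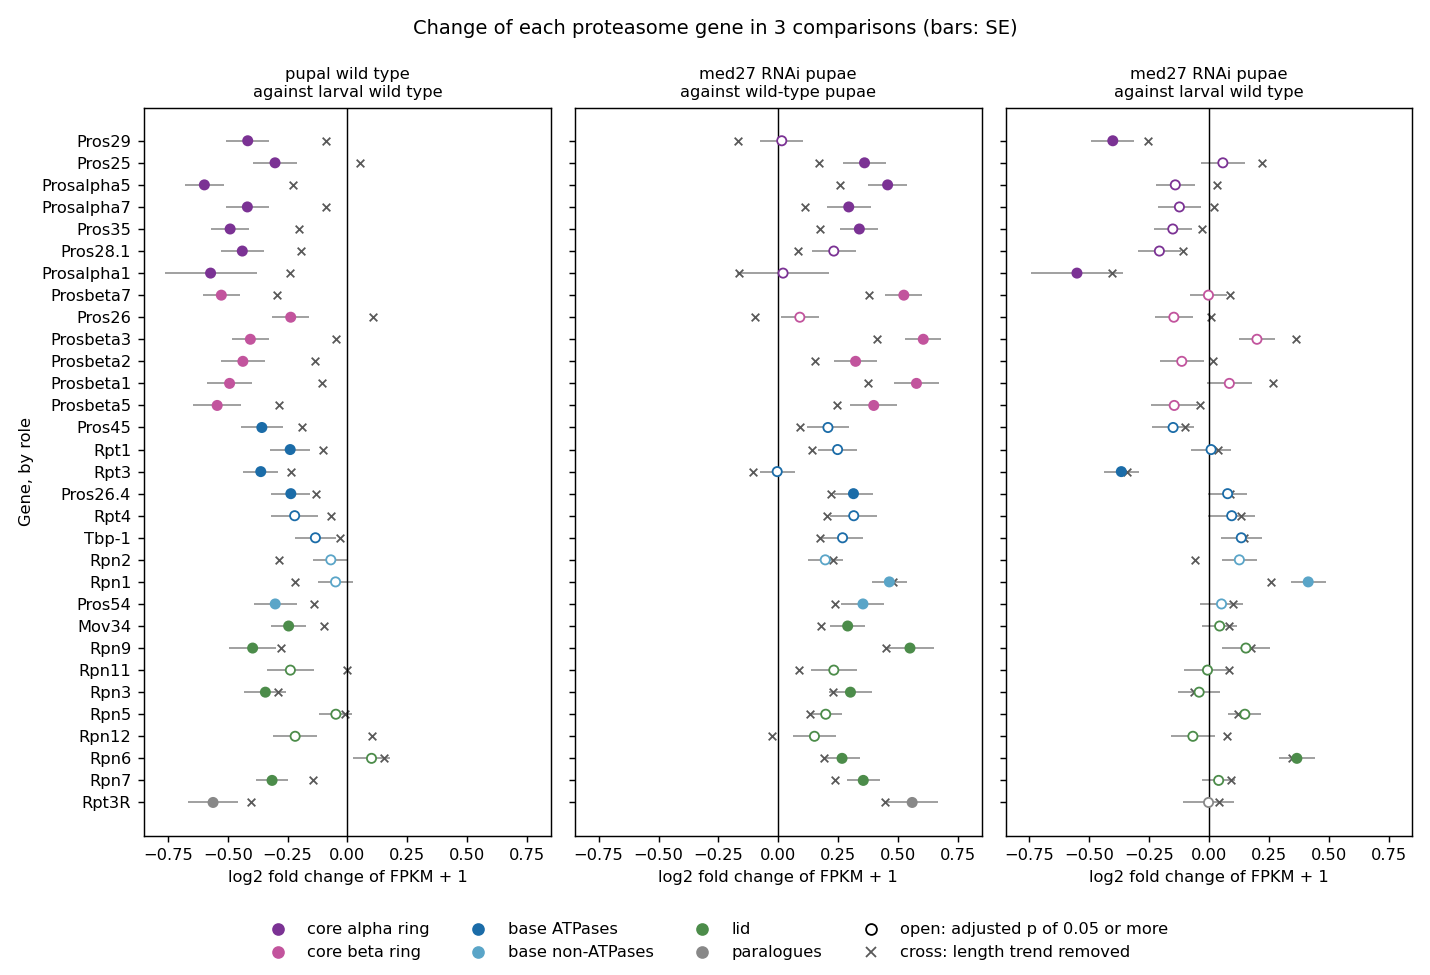
Log2 fold change of FPKM + 1 of the 31 tested proteasome genes in the 3 comparisons, with bars of 1 SE from limma and n = 2 per group. Filled points passed an adjusted p of 0.05, and crosses give the value after correction of every library for its trend with transcript length. The core genes lie left of 0 in the first panel and the points lie mostly right of 0 in the second.

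Core and regulatory particle differed in how far they moved. The median over the 12 core genes was 424 and 483 FPKM in larvae, 337 and 325 in wild-type pupae, and 439 and 425 in RNAi pupae. The median over the 17 regulatory particle genes was 208 and 222, 191 and 180.3, and 219 and 221 FPKM in turn. Within a library, the ratio of the core to the regulatory particle median was 2.04 and 2.17 in larvae, 1.768 and 1.802 in wild-type pupae, and 2.01 and 1.92 in RNAi pupae. This ratio does not depend on the scale of a library, and the wild-type pupal values were the lowest without overlap. With 2 libraries against 2, an exact permutation test cannot give a two-sided p below 0.333, so the ratio was not tested.

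**Figure D3:**
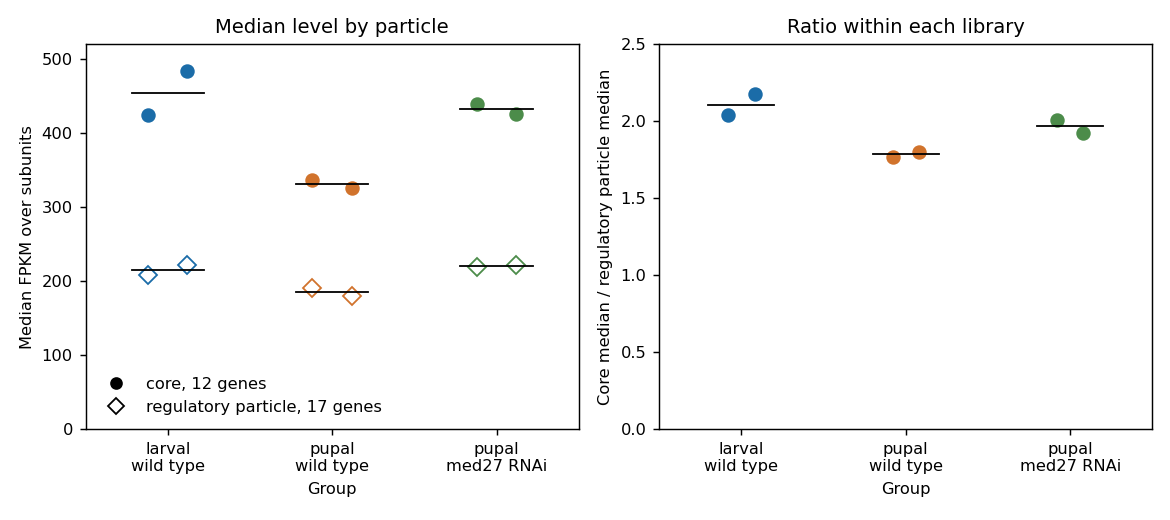
Left, median FPKM over 12 core genes (filled) and 17 regulatory particle genes (open) in each replicate, and right, their ratio, with lines at the mean of the 2 replicates of a group. The core median falls from 424 and 483 in larvae to 337 and 325 in wild-type pupae, and the ratio from 2.04 and 2.17 to 1.768 and 1.802.

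Core genes are mostly shorter than regulatory particle genes, and over both particles together the larva to pupa change went with transcript length. The longest annotated transcripts of the 12 core genes were 852 to 1215 nt, and those of the 17 regulatory particle genes 995 to 3412 nt. Across the 30 standard genes the pupal against larval change correlated with log2 length at Pearson's r = 0.70 and Spearman's rho = 0.66, a description over genes that share their libraries and are not independent replicates. Within the particles the relation differed, with r = -0.26 (rho = -0.24) over the 12 core genes and r = 0.52 (rho = 0.44) over the 17 regulatory particle genes. Over all tested genes the median change was -0.40 up to 1000 nt, where 9 members lie, -0.26 from 1000 to 2000 nt, where 20 lie, 0.09 from 2000 to 5000 nt, and 0.67 above 5000 nt. The log2 deviation of a library changed by -0.12 and -0.20 per doubling of length in larvae, by 0.0918 and 0.19 in wild-type pupae, and by 0.00228 and 0.041 in RNAi pupae.

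Removing this trend from each library changed the counts. Members lower then numbered 9, with 0 higher, beside 1212 of 6659 genes lower, and 8 of the 23 calls remained. The correlation with length over the 30 standard genes came to r = -0.25. The members' median came to -0.13 beside -0.04 for all tested genes. The medians of the 12 core genes (-0.12) and of the regulatory particle (-0.13) then lay side by side, where they had been -0.44 and -0.24. Rpn2 was called lower after this step, at -0.29 (limma adjusted p = 0.0288). The source of the trend was not tested.

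**Figure D4:**
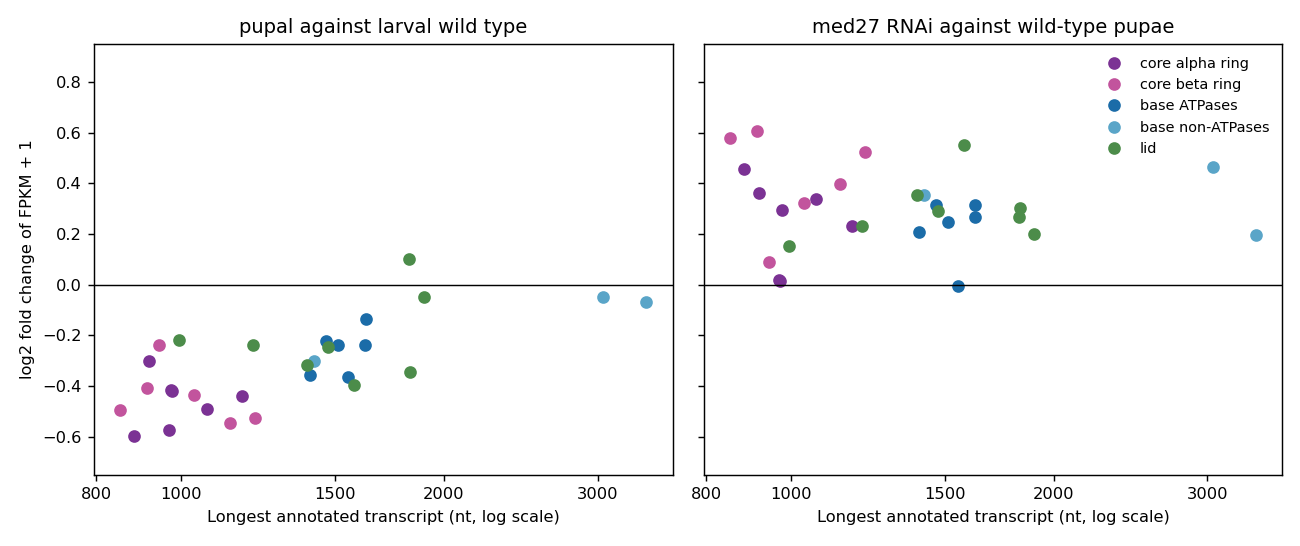
Log2 fold change of FPKM + 1 against the longest annotated transcript (nt, log axis) for the 30 standard subunit genes, coloured by role. In the first comparison the short core genes lie lowest (Pearson's r = 0.70), and in the second the points show little slope (r = -0.06).

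In pupae with med27 knocked down, proteasome transcripts were higher than in wild-type pupae of the same age. Of the 31 tested members, 18 were higher and 0 lower, beside 19.6% of all tested genes higher, 8.64% lower and 28.3% in either direction. The median was 0.30 for the members and 0.05 for all tested genes. Short genes were higher in general, with medians over all tested genes of 0.33 up to 1000 nt and 0.12 from 1000 to 2000 nt, the ranges that hold 9 and 20 of the members. With the length trend removed the members' median was 0.18 and that of all tested genes 0.02. For 28 members both RNAi libraries lay above both wild-type pupal libraries, as they did for 42.7% of all tested genes, and for 0 both lay below, as for 28.7%. By role, 5 of 6 beta ring genes rose (median 0.46), 4 of 7 alpha ring genes (0.29), 5 of 8 lid genes (0.28), 2 of 3 base genes without ATPase (0.35) and 1 of 6 ATPases (0.26).

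The largest rises among the members were those of the beta ring genes Prosbeta3 and Prosbeta1, followed by Rpt3R, the lid gene Rpn9 and Prosbeta7. Prosbeta3 (FBgn0026380, 3R) stood at 338 and 317 FPKM in wild-type pupae and 511 and 487 in RNAi pupae, with no overlap, a log2 change of 0.61 (SE 0.08, limma adjusted p = 0.00231). The RNAi libraries were also above the larval 429 and 439 FPKM, though that difference did not pass (0.20, limma adjusted p = 0.0637). Prosbeta1 rose by 0.58 (SE 0.09, limma adjusted p = 0.00578), to 448 and 427 FPKM. Prosbeta7 rose by 0.52 (SE 0.08, limma adjusted p = 0.00403). The other catalytic genes, Prosbeta5 and Prosbeta2, reached 336 and 326 FPKM and 407 and 426 FPKM. Their changes were 0.40 for Prosbeta5 (limma adjusted p = 0.0234) and 0.32 for Prosbeta2 (limma adjusted p = 0.0361), and each of these calls was lost in every fit that left out 1 of the 4 pupal replicates.

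Among the members of the regulatory particle, Rpn9 and Rpn1 rose most. Rpn9, a scaffold gene of the lid (FBgn0028691, 3R), stood at 191 and 175 FPKM in wild-type pupae and 270.1 and 265.5 in RNAi pupae, a log2 change of 0.55 (SE 0.10, limma adjusted p = 0.00755). Rpn1, the base scaffold that docks ubiquitin carriers (FBgn0028695, 3L), stood at 163.5 and 158 FPKM against 219 and 226 and rose by 0.46 (SE 0.07, limma adjusted p = 0.00508). In both genes the groups did not overlap. Pros54 (Rpn10), a ubiquitin receptor, stood at 146 and 164 FPKM against 196 and 200.4 and rose by 0.35 (limma adjusted p = 0.0252), short of the threshold without wild-type pupal replicate 1 or either RNAi replicate. Mov34 (Rpn8), the highest lid gene among the members and the partner of Rpn11, stood at 221 and 214 FPKM against 268 and 264 and rose by 0.29 (limma adjusted p = 0.0233), a call lost in every fit that left out 1 of the 4 pupal replicates. Of the ATPases, Pros26.4 (Rpt2) passed, at 0.31 (limma adjusted p = 0.0265), again lost in all 4 of those fits, while Rpt4 (0.32) and Tbp-1 (0.27) missed at limma adjusted p = 0.051 and 0.0523. Rpn11 itself, at 248 and 231 FPKM in RNAi pupae, did not pass (0.23, limma adjusted p = 0.115).

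A few standard genes read close to their wild-type pupal level. Pros29, chosen with Rpt3 and Pros26 after their values were seen, read 399 and 378 FPKM in RNAi pupae beside 403 and 367 in wild-type pupae (0.01, SE 0.09, limma adjusted p = 0.916). Rpt3 read 211 and 200.4 FPKM beside 212 and 200.4 (-0.00, SE 0.07, limma adjusted p = 0.971). Pros26 read 464 and 424 FPKM beside 416 and 417 (0.09, SE 0.08, limma adjusted p = 0.422). Prosalpha1, at 0.02 with an SE of 0.19, is too uncertain to place. After quantile normalization Pros29 was called lower at -0.26 (limma adjusted p = 0.0238), as was Rpt3 at -0.24 (limma adjusted p = 0.0374).

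The number of calls in this comparison depended on single libraries and on the scaling. Members higher numbered 10 without wild-type pupal replicate 1 and 7 when replicate 2 was left out, beside 1001 and 686 of 6992 genes. They numbered 6 without RNAi replicate 1 and 6 without RNAi replicate 2, beside 646 and 533 genes. With the length trend removed 10 were higher, beside 1123 of 6659 genes, and after quantile normalization 7, beside 879 of 6992. Prosbeta1, Prosbeta3, Prosbeta7, Rpn1 and Rpn9 held their calls in all 18 alternatives.

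Set against larval wild type, few proteasome transcripts of RNAi pupae differed beyond the replicate error. Of the 31 members 5 passed, 2 higher and 3 lower, beside 27.8% of all tested genes higher, 19.5% lower and 47.4% in either direction. Both RNAi libraries lay above both larval ones for 8 members and below them for 8, beside 43.4% and 34.2% of all tested genes. The members' median was -0.00 and that of all tested genes 0.05. This comparison shares its RNAi libraries with the previous one and its larval libraries with the first, so the 3 sets of values are not independent. Rpn1 rose from 161 and 172 FPKM in larvae to 219 and 226 in RNAi pupae, by 0.41 (SE 0.07, limma adjusted p = 0.00403), in all 19 alternatives. Rpn6 rose from 174.5 and 160.3 to 211 and 221 FPKM, by 0.37 (SE 0.08, limma adjusted p = 0.00744). Pros29 fell by 0.40 (SE 0.09, limma adjusted p = 0.00943), Rpt3 by 0.37 (SE 0.07, limma adjusted p = 0.00652) and Prosalpha1 by 0.55 (limma adjusted p = 0.0487). Without RNAi replicate 2, 1 member was higher and 0 were lower, Rpn1 being the one left. Scaled to a common sum of FPKM, an alternative chosen after seeing that the sums differed, 14 were higher and 1 lower, beside 2919 and 857 of 7253 genes.

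Proportions within each particle shifted for a handful of subunits. These were chosen after their values were seen. Relative to the median of the regulatory particle genes in the same library, Rpn1 stood at 0.774 and 0.773 in larvae, 0.858 and 0.877 in wild-type pupae, and 1.00 and 1.02 in RNAi pupae, with no overlap between any groups. Rpt3 went the other way, at 1.28 and 1.19, 1.12 and 1.11, and 0.966 and 0.907 times that median. These proportions were not corrected for transcript length, and Rpn1 is long, at 3041 nt. With the length trend removed, Rpn1 changed by -0.22 from larva to wild-type pupa, beside a regulatory particle median of -0.13. Its larva to pupa shift thus turned. From wild-type to RNAi pupae Rpn1 then changed by 0.48, beside a median of 0.19. Relative to the core median, Pros29 stood at 1.15 and 1.12 in larvae against 1.20 and 1.13 in wild-type pupae, which overlapped, and at 0.909 and 0.889 in RNAi pupae, which lay below both. Prosbeta3 stood at 1.01 and 0.908, 1.00 and 0.977, and 1.16 and 1.15 times the core median. Its RNAi libraries were the highest and the other groups overlapped.

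The paralogues were mostly silent or at trace level. In Drosophila many of these copies are known as testis forms of the proteasome. Rpt3R (FBgn0037742, 3R), a copy of the ATPase gene Rpt3, was the exception, at 35.35 and 43.0 FPKM in larvae, 26.9 and 25.3 in wild-type pupae, and 38.6 and 39.3 in RNAi pupae. The wild-type pupal libraries were the lowest without overlap. Rpt3R fell by 0.56 from larva to pupa (SE 0.11, limma adjusted p = 0.00549) and was higher by 0.56 in RNAi than in wild-type pupae (SE 0.11, limma adjusted p = 0.00893), the latter short of the threshold without wild-type pupal replicate 2 or RNAi replicate 2. The difference of Rpt3 itself between RNAi and wild-type pupae was -0.00 (SE 0.07).

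Of the 12 members under the filter, 5 were listed at 0 in every library, namely Prosalpha3T, Prosalpha6T, Prosbeta4R1, Prosbeta4R2 and Prosbeta5R (Prosbeta5R1). Rpt4R, Pros28.1A, Pros28.1B (Prosalpha4T2), Prosbeta2R1 and Rpn12R never exceeded 0.151 FPKM. Rpt6R, a copy of the ATPase gene Pros45, stood at 0.3165 and 0.425 FPKM in larvae, 0.312 and 0.253 in wild-type pupae, and 1.07 and 1.15 in RNAi pupae, where both libraries were the highest. With no filter on low values it was higher in RNAi than in wild-type pupae by 0.72 (SE 0.07, limma adjusted p = 0.0123), a difference on the log2 scale of FPKM + 1 that understates the change of so low a gene. It rested on 43 to 53 fragments in each RNAi run and 10 to 18 in each wild-type pupal run. Prosbeta2R2, a copy of a catalytic subunit gene, measured 0.495 and 0.296 FPKM in larvae, 0.286 and 0.259 in wild-type pupae, and 0.656 and 2.18 in RNAi pupae. Its rise was mostly in RNAi replicate 2, and with no filter it did not pass (0.85, SE 0.31, limma adjusted p = 0.162). Of 6 testis markers examined, 4 stayed under 1 FPKM in every library. The others were the germline gene bam and can. In RNAi replicate 2 bam was also highest, at 14.4 FPKM beside 3.68 in RNAi replicate 1. There can read 7.97 FPKM, below its 8.16 and 10.8 in wild-type pupae. The part of these genes in the value of Prosbeta2R2 was not tested.

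Further subunits are listed under symbols outside the rule. CG17331 (Prosbeta4), the remaining gene of the beta ring, stood at 322 and 389 FPKM in larvae, 285 and 264 in wild-type pupae, and 369 and 344 in RNAi pupae. It fell by 0.36 (limma adjusted p = 0.0259) and was higher by 0.37 in RNAi pupae (limma adjusted p = 0.0372). CG13779 (Sem1), a small lid subunit, stood at 263 and 271.5 FPKM in larvae, 213 and 215 in wild-type pupae, and 381 and 371 in RNAi pupae. It thus stood above every lid gene of the rule in RNAi pupae, and above the core genes Prosbeta5 and Pros28.1 there. Its RNAi libraries exceeded all its others, by 0.81 over wild-type pupae (limma adjusted p = 0.00089) and by 0.49 over larvae (limma adjusted p = 0.00177). CG13349 (Rpn13), a ubiquitin receptor, lay between 139 and 159 FPKM and passed in no comparison.

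The authors' deposited tables of genes at an adjusted p under 0.01 give a second processing of the same samples. They are not independent of the results above, and which technical runs entered them, and whether as replicates, is not stated. The authors' table of pupal against larval wild type lists 7 members, all lower, where 4.07% of all listed genes are lower and 9.7% higher. The log2 ratios in the authors' deposited table run from -0.73 for Prosalpha5 to -0.51 for Pros28.1. The authors' deposited table of RNAi and wild-type pupae lists 10 members, all higher in RNAi once its sign is turned, where 5.72% of all listed genes are higher and 5.52% lower. In the authors' deposited table Prosbeta3 has a log2 ratio of 0.56, Prosbeta1 of 0.55, Rpn9 of 0.50 and Rpn1 of 0.43. Prosbeta2R2 has 2.70 in the authors' deposited table, on base means (normalized signal per group) of 150.4 in RNAi and 23.12 in wild-type pupae. Its FPKM rose mostly in RNAi replicate 2, at 2.18 beside 0.656 in RNAi replicate 1. In the fit with no filter on low values it did not pass (limma adjusted p = 0.162).

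Other lists of the ubiquitin pathway held genes that moved in either direction, and their counts stand beside 22.7% of all tested genes higher and 26.5% lower in wild-type pupae than in larvae, and 19.6% higher and 8.64% lower in RNAi than in wild-type pupae. Among 13 proteasome activators, assembly factors and regulators, 3 were higher and 2 lower in wild-type pupae than in larvae, and 2 were higher and 0 lower in RNAi than in wild-type pupae, shares near or below those of all genes. The regulator cnc, the fly Nrf transcription factor known to act on proteasome genes, rose from 12.94 and 10.15 FPKM in larvae to 18.96 and 19.99 in wild-type pupae, by 0.71 (limma adjusted p = 0.00517), while the core genes fell. It stood at 15.59 and 18.01 FPKM in RNAi pupae (-0.20, limma adjusted p = 0.286). CG5384 (Usp14), a deubiquitinase bound to the proteasome, moved as the core genes did, by -0.41 (limma adjusted p = 0.00458) and then 0.35 (limma adjusted p = 0.0128). REG, an activator that binds the core, was higher by 0.30 in RNAi than in wild-type pupae (limma adjusted p = 0.0482), and Ubqn, a ubiquitin carrier, was higher by 0.46 in wild-type pupae than in larvae (limma adjusted p = 0.00278).

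Of 14 ubiquitin genes and activating or conjugating enzymes, 5 were higher and 3 lower in wild-type pupae than in larvae (22.7% and 26.5% of all genes), and 3 were higher and 2 lower in RNAi than in wild-type pupae (19.6% and 8.64% of all genes). The conjugating enzyme gene UbcD10 had -0.37 (limma adjusted p = 0.00842) and 0.55 (limma adjusted p = 0.00359). The activating enzyme gene Uba1 did not pass in the first comparison (0.11) and was higher by 0.39 in RNAi pupae (limma adjusted p = 0.00807).

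Of 11 genes of cullin-RING ligases, 4 were higher and 4 lower in wild-type pupae than in larvae (22.7% and 26.5% of all genes). In RNAi pupae 5 were higher and 0 lower than in wild-type pupae (19.6% and 8.64% of all genes). Nedd8, the modifier that activates cullins, stood at 354 and 371 FPKM in larvae, 286 and 294 in wild-type pupae, and 485 and 479 in RNAi pupae. It changed by -0.32 (limma adjusted p = 0.0101) and then 0.73 (limma adjusted p = 0.00126). The adaptor gene skpA changed by -0.38 (limma adjusted p = 0.0115) and then 0.65 (limma adjusted p = 0.00284). The COP9 signalosome is a complex that removes Nedd8 and is related to the lid. Among 8 of its genes, 5 fell from larva to pupa (26.5% of all genes). In RNAi pupae 5 were higher than in wild-type pupae (19.6% of all genes). CSN8 changed by -0.76 (limma adjusted p = 0.00245) and then 0.60 (limma adjusted p = 0.00807), and CSN5, the enzyme of the complex, by -0.40 (limma adjusted p = 0.00511) and then 0.55 (limma adjusted p = 0.00284).

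The unfoldase p97 and its partners had 2 of 4 genes lower in wild-type pupae (26.5% of all genes) and 2 higher in RNAi pupae (19.6% of all genes). The adaptor gene p47 changed by -0.40 (limma adjusted p = 0.0157) and then 0.72 (limma adjusted p = 0.00317). Of 11 genes of the anaphase promoting complex, which marks cyclins for the proteasome, 2 were higher and 2 lower in wild-type pupae, and 1 was higher in RNAi pupae, none of these above the shares of all genes. The activator gene rap (fzr) rose by 0.64 in wild-type pupae (limma adjusted p = 0.00244), and fzy, the other activator gene, was higher by 0.37 in RNAi pupae (limma adjusted p = 0.0377). The TCP-1 chaperonin, a large cytosolic complex outside the pathway, had 4 of 8 genes lower in wild-type pupae than in larvae (26.5% of all genes). In RNAi pupae 3 of 8 were higher than in wild-type pupae (19.6% of all genes). The medians were -0.28 and 0.18, beside -0.34 and 0.30 for the proteasome genes.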

How the data were processed

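RNA of sorted neuroblasts was profiled in 10 samples, namely 6 biological replicates in 3 groups, with 2 technical runs for each pupal one. The authors deposited FPKM per gene, each with a lower and an upper bound, per the file headers. Tools listed in the submitters' processing notes are Cufflinks 1.3.0, TopHat 1.4.1, BWA 0.6.1, DESeq 1.8.3 and HTSeq, without roles. The build was not given in the sources used here, so only chromosome arms are printed. The authors also deposited 2 tables of comparisons with base means (a normalized signal per group), the fold as a ratio of these means, its log2, and p-values, and the tables hold genes at an adjusted p under 0.01, checked on the values. The signs of the second were turned to give RNAi over wild type. Base means and the linear ratio in the deposited tables were not used for any test.

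Runs were averaged as FPKM. Fragments were implied from the upper confidence bounds, and 92.2 to 94.2% of values under 50 fragments in genes with 1 isoform then lay within 0.02 of a whole number, so larval values carry more counting error. Intervals of this kind cover counting error only. Genes with a mean of at least 1 FPKM were tested with limma 3.58.1 under R 4.3.3 on log2(FPKM + 1) values (empirical Bayes with trend, two-sided, 1 fit over 3 groups, 3 residual and 4.28 prior degrees of freedom), with Benjamini-Hochberg adjustment over 6992 genes and a threshold of 0.05. The code was tested on simulated data. Fold changes of low genes are understated. The p-values set a change against the spread between 2 replicates per group, pooled over the 3 groups and moderated with that of all genes. Tables and plots were made in Python 3.11.15 (matplotlib 3.10.9, numpy 2.4.6, pandas 2.3.3).

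Of the 43 members, 42 matched a current symbol, and roles were set by subunit name. Transcript length is that of the longest transcript in the Ensembl annotation, release 115. Named genes were the 5 largest rises and falls called in a comparison, the highest and lowest gene of a role, the catalytic subunits, Rpn11, and up to 3 called genes per direction of other lists, with others named where chosen later. The members and lists were chosen with earlier results of these data known. Counting by strand is not stated, and 13 tested members overlap another gene. Values of Rpt1 (inside CG17985) and Pros45 (with CG1801) are uncertain, although CG17985 and CG1801 were at 10.1 FPKM or less. Shorter overlaps involve more abundant genes. Pros25 overlaps Aos1 (25 bases, 256 to 386 FPKM), Prosbeta3 overlaps CG11980 (19 bases, 99.8 to 132 FPKM), and Rpt4 overlaps wuho (93 bases, 42.7 to 60.4 FPKM). The part of these overlaps in the values was not tested. Names that matched no listed gene are counted in no list. The labels do not say that a replicate number marks a shared day, so it was not used as a block. Alternatives were another pseudocount, filters, scalings, a length correction, a replicate block, single technical runs, fits of 2 groups and leaving out each replicate.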

Additional observations from a re-analysis of the deposited data

How the results depend on the processing

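With 2 replicates per group, single libraries and the scaling set many calls. From larva to pupa, members lower ranged from 11 to 23 over fits that left out 1 replicate, with 0 higher, and their median from -0.39 to -0.27. For RNAi against wild-type pupae, members higher ranged from 6 to 21, with 0 lower, and the median from 0.28 to 0.33. For RNAi pupae against larvae, 1 to 4 were higher and 0 to 4 lower, with medians from -0.0831 to 0.0837, the latter without larval replicate 2, which turned the sign.

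Quantile normalization gave 2 members higher and 8 lower in the first comparison (median -0.14), beside 1521 and 1713 of 6992 genes. In the second it gave 7 higher and 2 lower (0.0688), beside 879 and 782 genes. Removing the length trend gave 9 lower and -0.13 in the first comparison, beside 1212 of 6659 genes. In the second it gave 10 higher and 0.18, beside 1123 genes. In the third it gave 5 higher, beside 1515 genes, and a median of 0.0742, which turned the sign. Without a filter the first median was -0.27. Members higher then numbered 11 in the second comparison and 4 in the third, beside 987 and 1937 of 11797 genes. Median centring gave 0.23 in the second comparison, and 8 lower and -0.0881 in the third, beside 1824 of 6992 genes lower. Scaling to a common sum of FPKM, chosen after seeing the data, moved the median of all tested genes from -0.07 to 0.12 in the first comparison and from 0.05 to 0.23 in the third. It gave 1 member higher, 11 lower and -0.14 in the first, beside 2270 and 884 of 7253 genes. In the third it gave 14 higher, 1 lower and 0.18, beside 2919 and 857 genes. Relative to all genes the members' median in the first comparison was -0.27 with this scaling and as deposited, but -0.0668 after quantile normalization and -0.091 with the length trend removed, and in the second 0.25 as deposited, 0.073 and 0.16 in turn. Without CR34335, the gene with the highest FPKM, this scaling gave 1 higher, 10 lower and -0.12 in the first comparison. Beside these stood 2318 and 809 of 7328 genes. In the third comparison it gave 13 higher and 0.18, beside 2887 genes higher.

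Over all tested genes, the share of calls that were higher was 46.2% in the first comparison as deposited and 72.0% with the common sum (74.1% without CR34335), 69.4% in the second and 52.9% after quantile normalization (57.4% with median centring), and 58.8% in the third, with 46.0% after median centring and 77.3% with the common sum. Over all alternatives, 102 single-gene values changed sign. In 6 of these the gene was called as deposited or under the alternative. In the first comparison Pros26 came to 0.004 and Rpn5 to 0.17 after quantile normalization, and Pros26 to 0.10 and Pros25 to 0.0506 with the length trend removed. In the second Prosalpha7 came to -0.0009 and Pros29 to -0.26 after quantile normalization. The cause was not tested.

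With a replicate block, 18 members were lower in the first comparison, beside 1577 of 6992 genes. In the second 12 were higher, beside 1105 genes. In the third 2 were higher and 3 lower, beside 1746 and 1192 genes. Deviations of same-numbered replicates correlated at -0.0572, -0.104 and -0.0256 for the pairs of groups. With 2 replicates per group these values cannot exclude a shared day or batch. The labels do not say whether the numbers pair the samples. With crossed numbers in the third comparison, an alternative chosen after seeing the data, 3 members were higher and 3 lower. Beside these stood 2114 and 1556 of 6992 genes. Depth limits Prosalpha1 and the paralogues more than the other members.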
